A study of Mus musculus with 8 samples.

Results

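The cell cycle and proliferation genes are a set of 34 mouse genes that drive or mark cell division, taken by symbol from a table of 24547 genes, and each of the 34 had its own row. They were measured by RNA sequencing of whole liver from ICR mice, an outbred strain. The treated group is 4 libraries from mice given a high dose of Psoraleae Fructus decoction into the stomach for 30 days. Psoraleae Fructus is the dried fruit of Psoralea corylifolia, and the series concerns liver damage by this preparation. The control group is 4 libraries from mice labelled as controls, with saline given by the same route over the same time. The labels give no sex, age, batch or dose by mass, and do not tie libraries to animals, so the tests below measure only the spread between these libraries. Library totals were 16398729 to 20159132 counts in the treated group and 15864399 to 19153845 counts in the control group. Albumin and the other 7 hepatocyte markers looked at were expressed in both groups, summing to 131984 to 152997 CPM (counts scaled for depth and composition) in treated libraries and to 110692 to 164353 CPM in controls.

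A cell that enters division first makes D-type cyclins, which switch on the kinases CDK4 and CDK6. These, and later cyclin E with CDK2, phosphorylate the retinoblastoma protein and so release E2F factors, which turn on the genes of DNA replication. Genes of the G2 phase and mitosis follow, through the MuvB complex bound at CHR elements and the factor NF-Y bound at CCAAT boxes. Hepatocytes of the adult liver are mostly outside the cycle, many of them polyploid, and return to it after loss of tissue. Dividing leukocytes and other non-parenchymal cells add to the same transcripts in whole liver.

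Of the 34 genes, 28 had a promoter window in the RefSeq table used (GRCm38.p6). The 250 bases before the RefSeq transcription start are printed for Cdk6, the only member called different between the groups, and for Mcm6, Mki67 and Top2a, the 3 members with the most negative fitted changes, all of them highest in the same control library. Capitals mark matches on either strand to 3 motifs, CHR (TTTGAA or TTCGAA), E2F (TTTCCCGC, TTTGGCGC, TTTCGCGC or TTTGCCGC) and the CCAAT box (CCAAT). The windows are chr5:3343643-3343892 (plus strand) for Cdk6, chr1:128359706-128359955 (minus strand) for Mcm6, chr7:135716380-135716629 (minus strand) for Mki67 and chr11:99024190-99024439 (minus strand) for Top2a, each read 5′ to 3′ along the gene.
Cdk6: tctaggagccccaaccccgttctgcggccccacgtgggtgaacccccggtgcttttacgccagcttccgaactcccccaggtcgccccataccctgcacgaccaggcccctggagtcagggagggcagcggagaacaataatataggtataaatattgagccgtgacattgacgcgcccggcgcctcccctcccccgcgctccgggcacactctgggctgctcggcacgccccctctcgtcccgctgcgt
Mcm6: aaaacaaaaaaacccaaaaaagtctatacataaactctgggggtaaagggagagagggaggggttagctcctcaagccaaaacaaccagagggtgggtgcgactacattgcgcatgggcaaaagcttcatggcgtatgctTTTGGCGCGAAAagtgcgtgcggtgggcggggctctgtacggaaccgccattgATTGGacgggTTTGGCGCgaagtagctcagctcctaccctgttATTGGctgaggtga
Mki67: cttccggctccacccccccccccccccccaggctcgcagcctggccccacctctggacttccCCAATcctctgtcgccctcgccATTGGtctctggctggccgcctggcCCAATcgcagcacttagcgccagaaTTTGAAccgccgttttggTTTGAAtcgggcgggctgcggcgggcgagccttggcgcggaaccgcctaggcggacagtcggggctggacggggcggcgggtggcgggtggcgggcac
Top2a: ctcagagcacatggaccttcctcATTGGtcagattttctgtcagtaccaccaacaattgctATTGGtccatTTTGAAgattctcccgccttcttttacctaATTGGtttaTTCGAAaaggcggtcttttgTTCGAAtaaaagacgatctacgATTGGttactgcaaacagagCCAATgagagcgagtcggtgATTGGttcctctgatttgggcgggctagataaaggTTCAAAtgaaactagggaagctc
The Cdk6 window held none of these motifs. It lies inside the GENCODE bounds of the gene, which begin upstream of the RefSeq start, so that the region before the GENCODE start was not searched. Mcm6 held 3 matches to E2F, of which 1 pair overlapped, and 2 CCAAT boxes. Mki67 held 2 CHR matches and 3 CCAAT boxes, and Top2a held 4 CHR matches and 6 CCAAT boxes. Matches to different motifs did not overlap in any member's window. Of the 30 windows of the 28 genes 6 held an E2F match, where 1.86% of all 32851 windows of this length did. A CCAAT box stood in 70.0% of the members' windows and in 33.8% of all windows, and a CHR match in 26.7% of the members' windows and in 17.1% of all. These matches are letters in a window and do not show that a factor was bound there.

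Cdk6 rose in treated livers and no other member was called in either direction. Of the 34 members, 26 were counted well enough to test. In edgeR's quasi-likelihood test, with p-values adjusted over all 12861 tested genes and a call at an adjusted p under 0.05, 1 of the 26 was called higher, where 5.46% of all tested genes were. None was called lower, where 3.75% of all tested genes were, and 9.21% of all were called in either direction. At an unadjusted p under 0.05, 2 members were higher (Cdk6 and Ccnd3) and 7 lower (Ccnd2, Ccna2, Top2a, Mcm2, Mcm6, Rrm1 and Rrm2). These 9 are 34.6% of the tested members, beside 29.4% of all tested genes. Of them Ccna2 passed the count filter through the controls, with 10, 49, 20 and 16 counts there. It had 8, 19, 4 and 3 counts in treated libraries, so its place among the lower members is weak support. The DESeq2 Wald test, run as an alternative, called Cdk6 and Ccnd3 higher and Rrm1 and Top2a lower. The median log2 change was -0.27 over the 26 tested members and -0.037 over all tested genes. In a bulk sample, fewer cells of a type and less RNA per cell cannot be told apart.

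**Figure D1:**
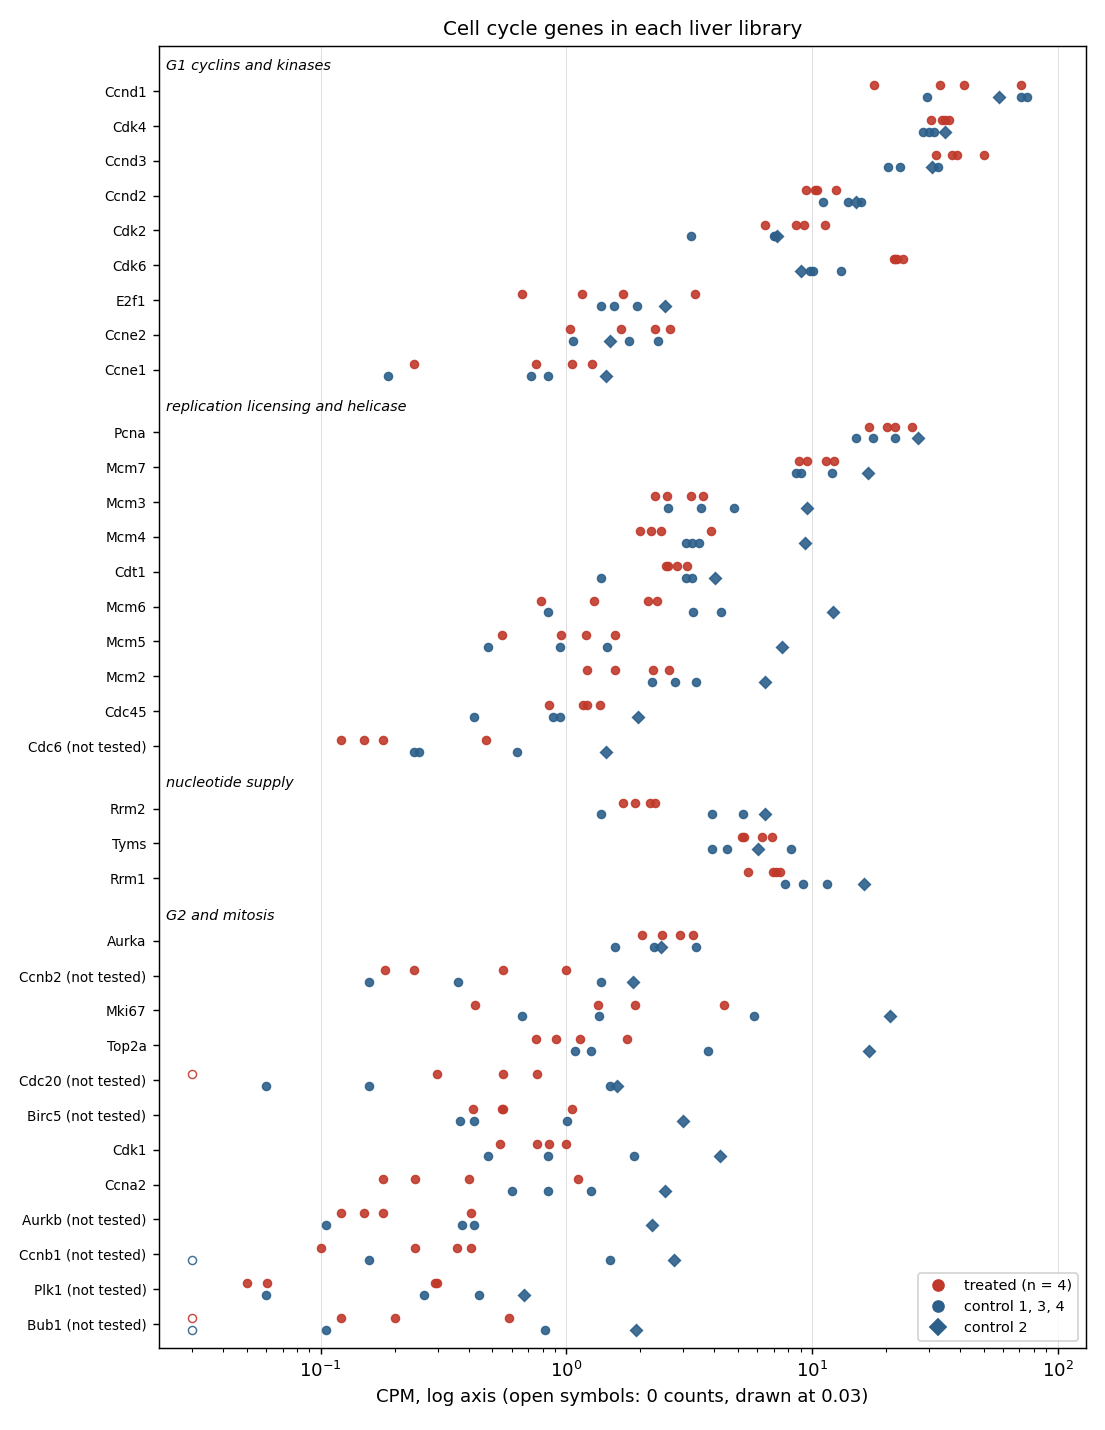
Level of each of the 34 genes in every library (CPM, log axis), grouped by role, treated libraries above and control libraries below on each line, with control 2 as a diamond and open symbols for 0 counts. Cdk6 is the only gene whose treated libraries all lie above its controls, at 21.6 to 23.5 CPM against 8.998 to 13.1 CPM, and control 2 is at the right end for 24 of the 34 genes.

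Cdk6 encodes a kinase that partners D-type cyclins at the start of the cycle (ENSMUSG00000040274, chromosome 5, 3341485 to 3531008, plus strand, GRCm38). It stood at 23.5, 22.3, 21.8 and 21.6 CPM in treated libraries 1 to 4, against 9.86, 8.998, 13.1 and 10.1 CPM in controls 1 to 4. The treated values lie close together, and the highest control is well below the lowest of them. Cdk6 averaged 22.3 ± 0.864 CPM in treated libraries and 10.5 ± 1.78 CPM in controls (SD, n = 4 each), a 2.12-fold difference (log2 1.09, SE 0.14, edgeR adjusted p = 0.00501). The call of Cdk6 held in all 8 fits that left out 1 library, with log2 changes from 1.03 to 1.21 and adjusted p from 0.00439 to 0.0231. Over all tested genes the fitted change depended on length, with a median log2 change of 0.29 in the bin of shortest genes and -0.18 in the bin of longest genes. Cdk6, with 13989 bases of counted length, is among the longest, and with the length trend removed its log2 change was 1.27 (edgeR adjusted p = 0.00635). The antisense gene Gm17590, whose exons overlap those of Cdk6, was near 0 in all libraries, at 0 to 0.117 CPM in treated libraries and 0 to 0.105 CPM in controls.

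The kinase that shares its cyclins with Cdk6 was not called. Cdk4 stood at 34, 34.8, 36.0 and 30.6 CPM in treated libraries and at 31.5, 34.9, 29.9 and 28.4 CPM in controls. The groups of Cdk4 overlap and its log2 change was 0.12 (SE 0.11, edgeR adjusted p = 0.489), with a 95% interval of -0.12 to 0.36. Per length, Cdk4 had 10.3 ± 0.815 FPKM (counts scaled for gene length and depth) in treated libraries and 9.77 ± 1.42 FPKM in controls, and Cdk6 had 1.57 ± 0.108 FPKM in treated libraries and 0.760 ± 0.120 FPKM in controls (SD, n = 4 each), so that Cdk4 was the more abundant of the pair in both groups. Cdk2, the partner of the E and A cyclins, had 11.3, 9.27, 8.62 and 6.45 CPM in treated libraries and 7.03, 7.24, 3.21 and 7.09 CPM in controls. Its groups overlap through treated library 4, and control 3 lies far below the other controls (log2 0.54, SE 0.27, edgeR adjusted p = 0.225). Cdk4 shares exon positions with Tspan31 on the other strand, and Cdk2 with Pmel, so part of their reads could belong to those genes. Tspan31 stood above Cdk4, at 115 to 189 CPM in treated libraries and 108 to 175 CPM in controls, so the level of Cdk4 is uncertain. Pmel stood below Cdk2 in every library, at 0.597 to 1.0 CPM in treated libraries and 0.251 to 0.414 CPM in controls. In all, exons of 13 of the 34 members overlap exons of another gene.

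The 3 D-type cyclins, which carry growth signals to CDK4 and CDK6, differed among themselves. Ccnd3 stood at 32.0, 37.1, 38.9 and 50.4 CPM in treated libraries, against 32.8, 30.7, 22.8 and 20.4 CPM in controls. Only treated library 1 and control 1 overlap in Ccnd3 (log2 0.57, SE 0.19, edgeR adjusted p = 0.0841). Ccnd3 passed the threshold with DESeq2 (adjusted p = 0.0439) and without the low-count filter (edgeR adjusted p = 0.0495). Ccnd2 stood at 10.2, 12.6, 10.5 and 9.44 CPM in treated libraries, against 11.1, 15.1, 15.9 and 14.0 CPM in controls (log2 -0.39, SE 0.16, edgeR adjusted p = 0.133). Only treated library 2 and control 1 overlap in Ccnd2. Ccnd1, the cyclin best known from liver regrowth, had 33.1, 17.9, 71.0 and 41.7 CPM in treated libraries, against 29.3, 58.0, 70.7 and 75.4 CPM in controls. Both groups of Ccnd1 spread widely, and the 95% interval of its log2 change ran from -1.51 to 0.49 around -0.51 (edgeR adjusted p = 0.467). For the E-type cyclins and E2f1, which act at entry to S phase, no change was detectable at this depth. E2f1 ranged over 0.657 to 3.34 CPM in treated libraries and 1.38 to 2.53 CPM in controls, Ccne1 over 0.239 to 1.27 and 0.189 to 1.45 CPM, and Ccne2 over 1.03 to 2.64 and 1.07 to 2.36 CPM. Exons of Ccne2 overlap those of Ints8 on the other strand, at 16.1 to 23.2 CPM over all libraries, so the level of Ccne2 is uncertain.

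**Figure D2:**
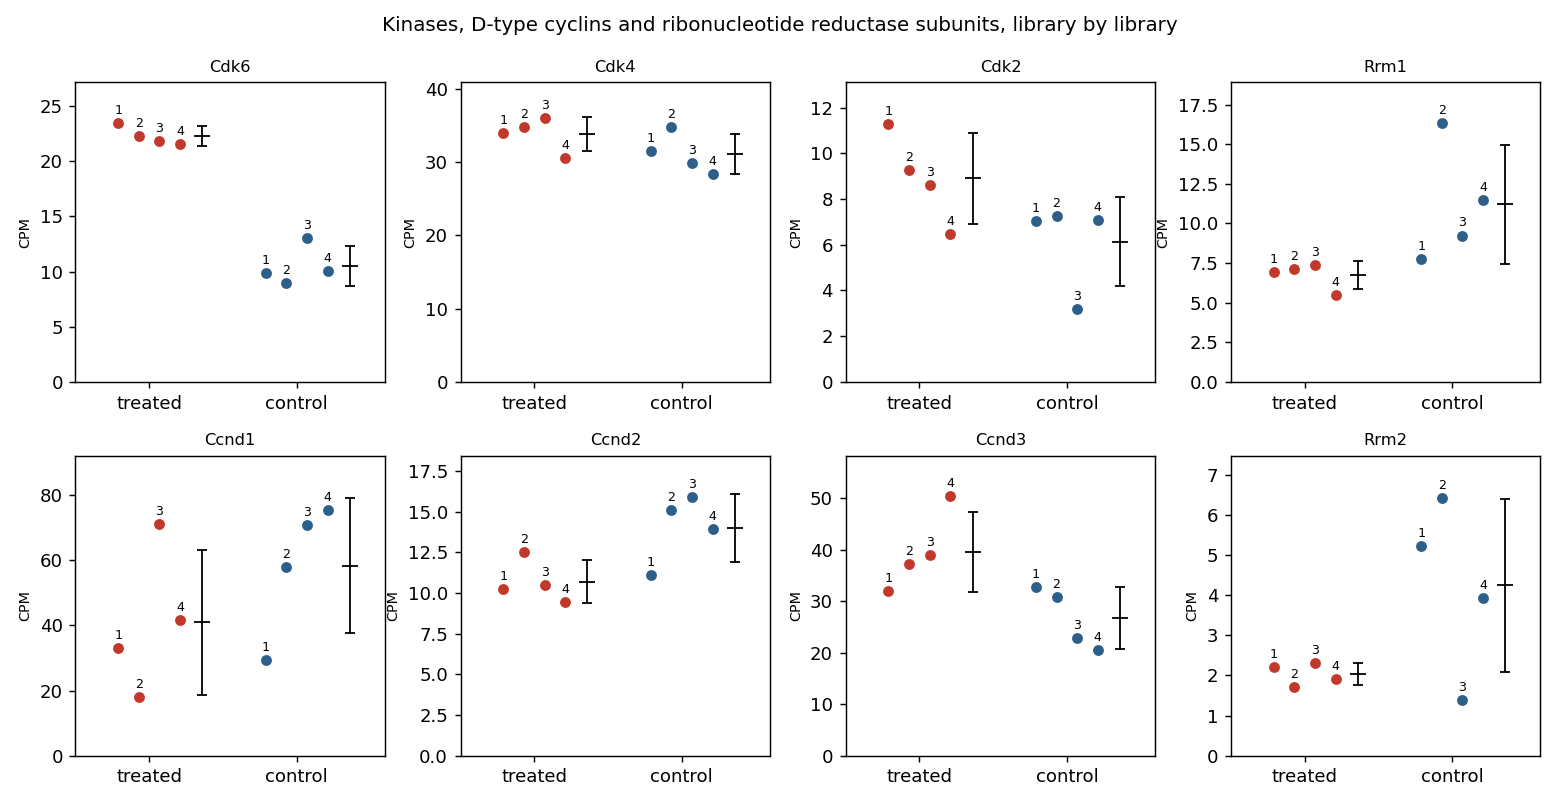
CPM of the 3 kinases, the 3 D-type cyclins and the ribonucleotide reductase subunits Rrm1 and Rrm2 in each library (points, numbered by library), with the group mean and SD (bars, n = 4), treated on the left and control on the right. Cdk6 and Rrm1 are the panels without overlap, Cdk6 with all treated libraries above and Rrm1 with all treated libraries below the controls.

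The genes that license and open replication origins had no called member, and each of the 10 was highest in control 2. Pcna, the sliding clamp of replication and repair, stood at 25.4, 21.9, 20.3 and 17.0 CPM in treated libraries and at 17.8, 27.1, 15.2 and 21.8 CPM in controls. The groups of Pcna overlap across their range (log2 0.047, SE 0.19, 95% interval -0.38 to 0.48, edgeR adjusted p = 0.896). The 6 Mcm genes encode the ring of the replicative helicase. Mcm7, the most abundant of them per length, had 12.3, 11.4, 9.59 and 8.90 CPM in treated libraries and 12.1, 16.9, 9.05 and 8.61 CPM in controls (log2 -0.14, SE 0.23, edgeR adjusted p = 0.711). Exons of Mcm7 overlap those of Cops6 and Ap4m1 on the other strand, and Cops6 was called higher in treated livers, so the level of Mcm7 is uncertain.

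Mcm6 had the most negative fitted change of this ring. It stood at 2.35, 1.29, 0.789 and 2.15 CPM in treated libraries, against 0.841, 12.2, 3.27 and 4.25 CPM in controls. Control 1 lies among the treated libraries and control 2 far above all others (log2 -1.64, SE 0.71, edgeR adjusted p = 0.163). Mcm5 had 0.546 to 1.58 CPM in treated libraries and 7.55 CPM in control 2, with 0.481 to 1.47 CPM in the other controls. For Mcm2, Mcm3 and Mcm4 the log2 changes were -0.95, -0.81 and -0.87, with edgeR adjusted p of 0.140, 0.194 and 0.187. Each of these genes also had its highest value in control 2, at 6.46 CPM for Mcm2, 9.51 CPM for Mcm3 and 9.41 CPM for Mcm4. Cdt1, which loads the helicase, ranged over 2.55 to 3.11 CPM in treated libraries and 1.38 to 4.03 CPM in controls, and Cdc45, which activates it, over 0.85 to 1.37 and 0.421 to 1.97 CPM. Exons of Cdc45 overlap those of Ufd1 on the other strand. Ufd1 stood at 26.4 to 42.1 CPM over all libraries and was also highest in control 2, so the level of Cdc45 is uncertain. Cdc6, the other loader, had too few reads to test, with 3, 8, 2 and 3 counts in treated libraries and 4, 28, 4 and 12 counts in controls.

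**Figure D3:**
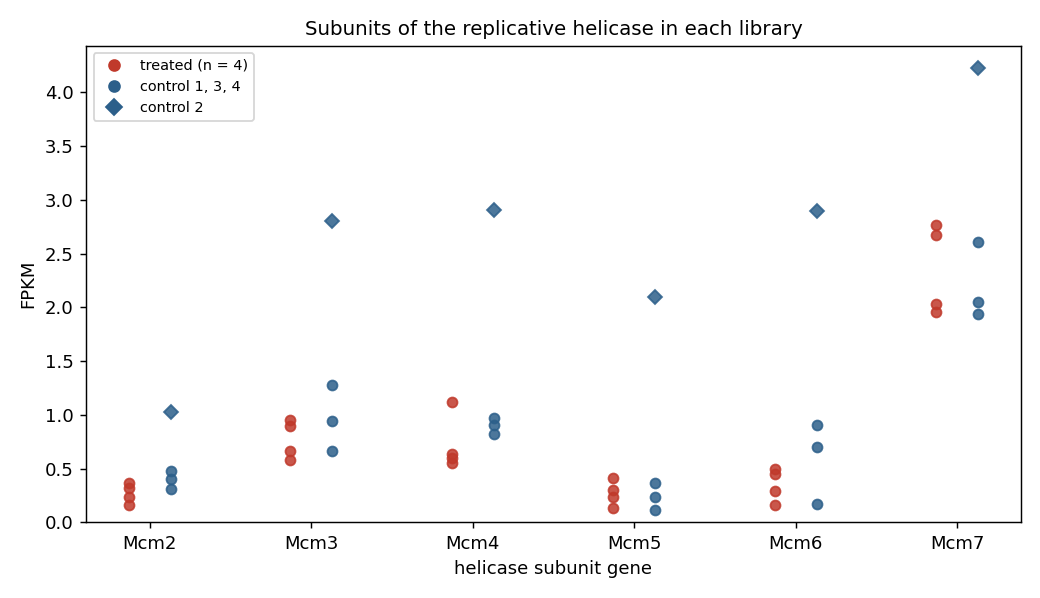
FPKM of the 6 helicase subunit genes in each library, treated to the left of control for each gene, with control 2 as a diamond. For each of the 6 genes control 2 is the highest point, from 1.03 FPKM for Mcm2 to 4.23 FPKM for Mcm7, and the remaining controls overlap the treated libraries.

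Of the 3 genes of nucleotide supply, Rrm1 had non-overlapping groups. It encodes the large subunit of ribonucleotide reductase, which makes deoxyribonucleotides, and stood at 6.95, 7.16, 7.41 and 5.49 CPM in treated libraries, against 7.75, 16.3, 9.24 and 11.5 CPM in controls. All treated libraries of Rrm1 lie below all controls, though the gap between treated library 3 and control 1 is narrow. Non-overlap with treated lower occurred in 8.7% of all tested genes, with treated higher in 10.2% and in either direction in 18.9%, and among the 26 tested members in 1 gene each way. The log2 change of Rrm1 was -0.73 (SE 0.23, edgeR adjusted p = 0.0773), -0.87 without control 1 (adjusted p = 0.0434) and -0.48 without control 2 (adjusted p = 0.183). Rrm2, the small subunit made mainly in S phase, had 2.20, 1.70, 2.31 and 1.91 CPM in treated libraries, against 5.23, 6.41, 1.38 and 3.94 CPM in controls. Control 3 lies below every treated library of Rrm2, and without it the log2 change moved to -1.35 (edgeR adjusted p = 0.0385), against -1.06 with all libraries (SE 0.40, adjusted p = 0.118). Tyms, which makes thymidylate, had 6.85, 5.28, 6.25 and 5.20 CPM in treated libraries and 3.91, 6.05, 4.53 and 8.19 CPM in controls, with overlapping groups (log2 0.055, SE 0.25, edgeR adjusted p = 0.906). Tyms has a pseudogene named after it in the annotation, as do Pcna, Ccnb1, Ccnb2 and Ccnd3, and such pseudogenes could take part of their reads. Pseudogenes under other names were not searched for.

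The genes of G2 and mitosis were scarce in both groups, and 11 of the 12 were highest in control 2. Mki67 encodes the proliferation marker Ki-67, which coats mitotic chromosomes. It stood at 1.35, 4.40, 0.425 and 1.91 CPM in treated libraries, against 0.661, 20.7, 5.78 and 1.36 CPM in controls. Controls 1 and 4 lie within the treated range of Mki67 and controls 2 and 3 above it (log2 -1.82, SE 1.11, edgeR adjusted p = 0.314). Top2a, the topoisomerase that untangles replicated DNA, had 0.750, 1.76, 0.911 and 1.13 CPM in treated libraries, against 1.08, 17.0, 3.77 and 1.26 CPM in controls. Its log2 change of -2.35 (SE 0.90, edgeR adjusted p = 0.132) was the most negative among the tested members and was -0.83 without control 2 (adjusted p = 0.357). Cdk1, the mitotic kinase, ranged over 0.538 to 1.0 CPM in treated libraries and 0.481 to 4.24 CPM in controls, and its partner Ccna2 over 0.179 to 1.11 and 0.601 to 2.53 CPM. Exons of Ccna2 overlap those of Exosc9 on the other strand. Exosc9 stood at 4.75 to 8.95 CPM over all libraries and was also highest in control 2, so the level of Ccna2 is uncertain. Aurka, a kinase of the spindle poles, was the most abundant of the 12 per length and the exception to the pattern. It had 2.45, 3.28, 2.91 and 2.03 CPM in treated libraries and 2.28, 2.43, 1.57 and 3.36 CPM in controls, so that control 4 was highest (log2 0.14, SE 0.29, edgeR adjusted p = 0.783).

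The 7 untested genes of this group also had their highest values in control 2. Ccnb2, a B-type cyclin that partners Cdk1, had 11, 17, 3 and 4 counts in treated libraries and 6, 36, 22 and 3 counts in controls. Ccnb1, the other B-type cyclin, had 2, 7, 4 and 6 counts in treated libraries and 0, 53, 24 and 3 counts in controls. Cdc20, which starts anaphase by activating the APC/C ubiquitin ligase, had 11, 13, 0 and 5 counts in treated libraries and 1, 31, 24 and 3 counts in controls. Exons of Cdc20 overlap those of Elovl1, which was called lower, so the Cdc20 counts are uncertain. In Ccnb1, Ccnb2 and Cdc20 controls 2 and 3 held the highest counts of the 8 libraries. Bub1, a kinase of the spindle checkpoint, had 37 counts in control 2 and at most 13 in any other library. Aurkb and Birc5, partners in the chromosomal passenger complex, had 43 and 58 counts in control 2, with at most 7 and 18 in any other library. Plk1, a kinase of mitotic entry, had 13 counts in control 2 and at most 7 elsewhere. A count of 0, as in treated library 3 for Cdc20, treated library 4 for Bub1 and control 1 for Bub1 and Ccnb1, allows a level of up to 3 counts, or 0.179 to 0.182 CPM, for counting error only.

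Control 2 stood above the other libraries in all 10 licensing and helicase genes and in all mitotic genes but Aurka. It was the highest library for 24 of the 34 members (70.6%), untested ones included. Among tested genes alone it was the highest for 16 of the 26 members (61.5%), beside 19.3% of all. Among the G1 cyclins and kinases it was highest for 1 of 9. The 12 genes of G2 and mitosis summed to 8.10, 15.8, 6.62 and 7.59 CPM in treated libraries, against 6.43, 61.0, 21.3 and 8.98 CPM in controls. Controls 1 and 4 thus lay in or near the treated range, control 3 somewhat above it and control 2 far above it. The 10 licensing and helicase genes summed to 41.0 to 52.8 CPM in treated libraries and to 96.6 CPM in control 2, with 40.7 to 52.4 CPM in the other controls. The T and NK cell and macrophage marker lists were also highest in control 2, and the other marker lists were not. The 9 T and NK cell markers summed to 7.68 to 9.17 CPM in treated libraries, against 17.7, 48.4, 26.8 and 11.7 CPM in controls, with 3 of the 6 tested (Cd3g, Nkg7 and Il2rb) called lower in treated livers, beside 3.75% of all tested genes, and 7 of the 9 highest in control 2. Cd3g had 5, 4, 9 and 10 counts in treated libraries and 28, 40, 20 and 20 in controls. Nkg7 had 12, 8, 12 and 17 counts in treated libraries and 32, 58, 50 and 30 in controls. Treated libraries alone would not have carried Cd3g and Nkg7 past the count filter, so their calls are weak support. Every control exceeded every treated library in the sum of these T and NK cell markers. The licensing sums of controls 1, 3 and 4, at 42.8, 40.7 and 52.4 CPM, did not exceed the treated range. In the G2 and mitosis sum control 3 exceeded every treated library, and controls 1 and 4 did not. The 8 macrophage and Kupffer cell markers summed to 299 to 605 CPM in treated libraries and 469 to 1147 CPM in controls, with 2 of the 8, all tested, called lower (Adgre1 and Timd4) and 7 of the 8 highest in control 2. None of the markers in these lists was at 0 throughout, and the 8 hepatocyte markers summed lowest in control 2, at 110692 CPM. The part of these cells in the levels of the cell cycle genes was not tested. The 5 erythroid markers summed to 286 to 375 CPM in treated libraries and to 111 CPM in control 2, the lowest of all libraries. The 6 B and plasma cell markers summed to 4.85 to 9.50 CPM in treated libraries and 6.14 to 6.85 CPM in controls, with 6.41 CPM in control 2, and the 6 neutrophil markers to 5.73 to 16.3 and 3.97 to 12.4 CPM, with 5.90 CPM in control 2. The 5 endothelial markers summed to 178 to 246 CPM in treated libraries and 245 to 342 CPM in controls (Pecam1 and Tek called lower), the 5 stellate markers to 247 to 341 and 329 to 412 CPM (Pdgfra called lower) and the 5 cholangiocyte markers to 13.9 to 34.2 and 18.8 to 31.2 CPM.

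**Figure D4:**
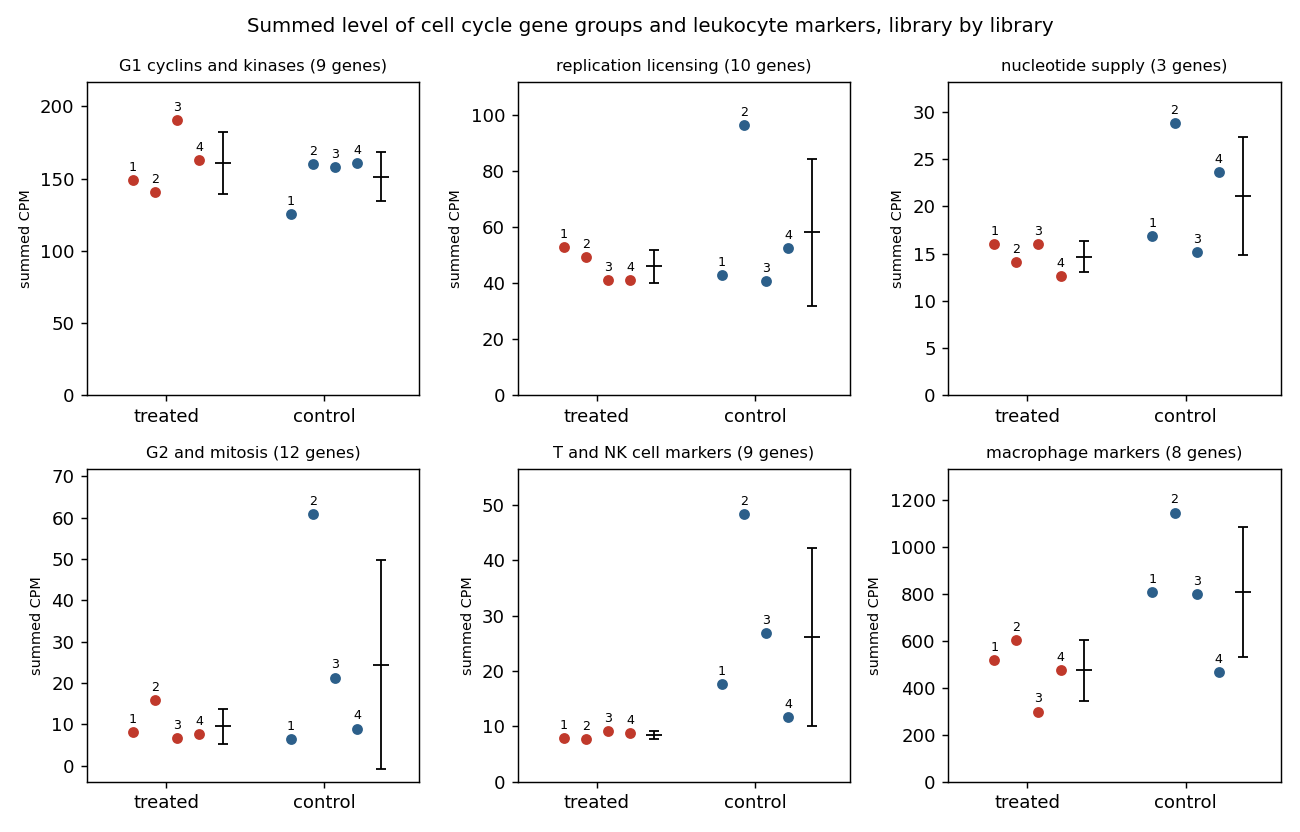
Summed CPM of the 4 role groups of cell cycle genes and of 2 lists of leukocyte markers in each library (points, numbered by library), with the group mean and SD (bars, n = 4), treated on the left and control on the right. Control 2 stands at 96.6 CPM for licensing genes, 61.0 CPM for G2 and mitosis and 48.4 CPM for T and NK cell markers, above every other library in each of these panels. In the G1 panel the groups overlap in part, at 141 to 190 CPM in treated libraries and 126 to 161 CPM in controls.

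The spread between libraries was wide for these genes. The median SD of log2 CPM within a group was 0.31 in treated libraries and 0.63 in controls over the 26 tested members, beside 0.22 and 0.30 over all tested genes. For the 5 tested genes of G2 and mitosis it was 0.48 in treated libraries and 1.26 in controls, and 0.88 in controls without control 2. For the 9 tested licensing genes it was 0.28 in treated libraries and 0.75 in controls, and 0.44 without control 2. The 3 genes of nucleotide supply also spread more in controls, with 0.19 in treated libraries and 0.46 in controls. Their median in controls rose to 0.55 without control 2, where those of the other 2 groups fell. The 9 G1 genes had nearly equal medians of 0.33 in treated libraries and 0.36 in controls. The members were not matched to all tested genes for level, and the part of low counts in their spread was not tested.

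Without control 2 the median fitted changes of the replication and mitotic genes lay nearer to 0. Control 2 was singled out as the highest library for most of these genes, so leaving it out raises their fitted changes by construction. The values without it give the size of that shift and are no separate test. The median log2 change of the 9 tested licensing genes was -0.81 with all libraries and 0.10 without control 2, and that of the 5 tested genes of G2 and mitosis was -1.43 and -0.42. For the 9 G1 genes it was 0.12 and 0.19, and for the 3 genes of nucleotide supply -0.73 and -0.48. The log2 change of Mki67 was -1.82 with all libraries and -0.36 without control 2, that of Mcm6 -1.64 and -0.75, and that of Mcm5 -1.29 and 0.15. That of Cdc45 lay farther from 0, at 0.12 and 0.62. That of Cdk6 was 1.09 and 1.03. Without control 2, Cdk6 remained the single called member (1 of 26, beside 4.49% of all genes tested in that fit).

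**Figure D5:**
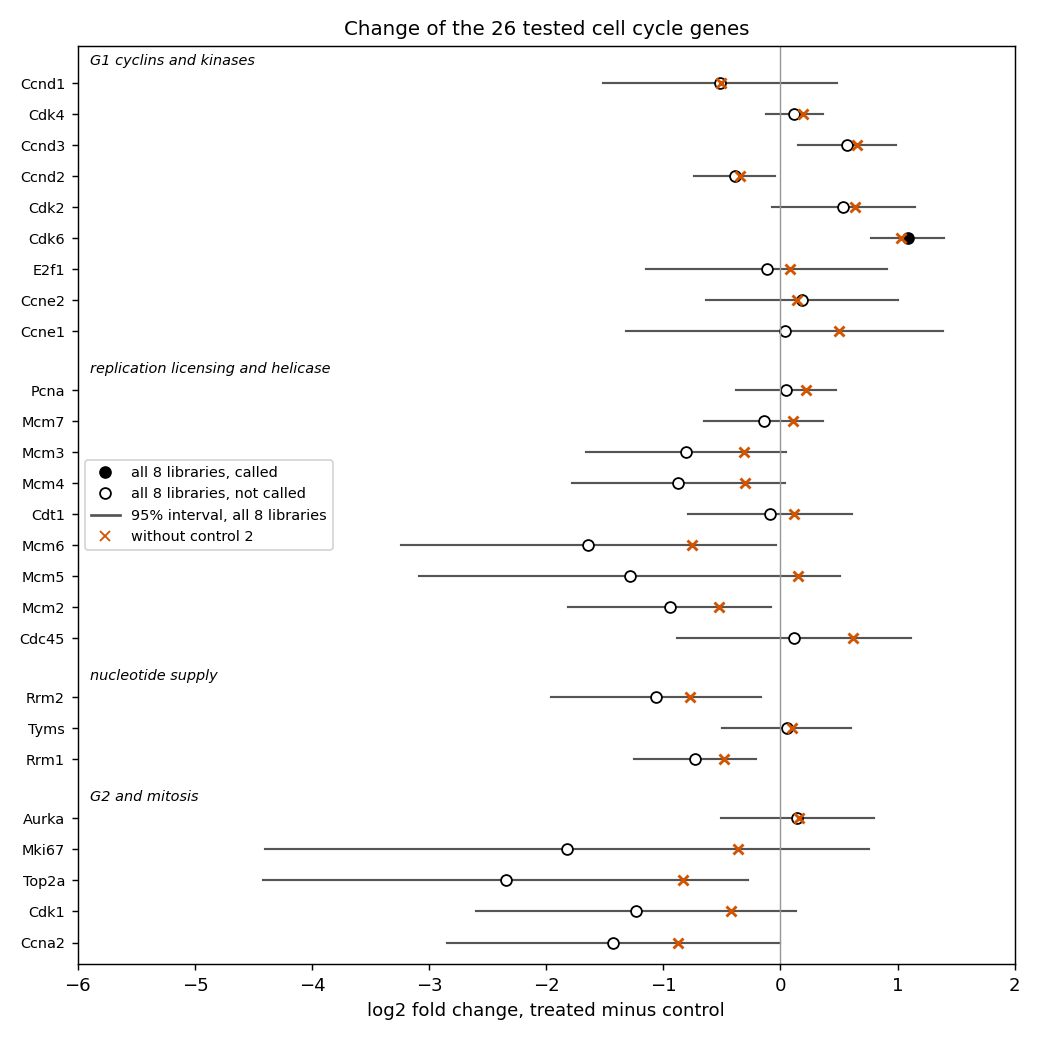
Fitted log2 change (treated minus control) of the 26 tested genes, by role, with all 8 libraries (circles, with the 95% interval as a line, filled where called) and without control 2 (crosses). Cdk6 keeps its place at 1.09 and 1.03, while Mki67 lies at -1.82 and -0.36 and Top2a at -2.35 and -0.83. Control 2 was the highest library for Mki67 and Top2a, so leaving it out raises their changes by construction.

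Per length, the G1 genes and Pcna led. Averaged over the 8 libraries, Ccnd1 (10.5 FPKM), Cdk4 (10.01 FPKM) and Pcna (8.72 FPKM) stood highest, followed by Ccnd3 (3.76 FPKM) and Mcm7 (2.53 FPKM). Ccnd1 and Cdk4 do not differ beyond the spread of Ccnd1 over libraries, 3.95 to 14.1 FPKM in treated and 5.96 to 15.9 FPKM in control libraries. Cdk6 (1.16 FPKM) ranked 8 of 34 on this scale. At the low end stood Plk1 (0.125 FPKM), Bub1 (0.114 FPKM) and Cdc6 (0.0869 FPKM), which were not tested. The 5 most abundant genes thus include 3 of the G1 group and none of G2 and mitosis.

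A further list of 104 cell cycle regulators outside the 34 was examined, of which 81 were tested. Wee1 and Fzr1 rose and Orc3, Bub3 and Cdc27 fell in treated livers (5 of 81, or 6.17%, beside 9.21% of all tested genes), and the median log2 change of the list was -0.18, beside -0.037 over all tested genes. Wee1, a kinase that holds back CDK1 and is also driven by the circadian clock, had 27.9, 24.6, 18.5 and 8.78 CPM in treated libraries, against 1.44, 4.29, 4.09 and 6.88 CPM in controls (log2 2.25, SE 0.48, edgeR adjusted p = 0.0280). Treated library 4 and control 4 nearly meet for Wee1. Fzr1, the activator of the APC/C in G1, averaged 13.7 ± 1.121 CPM in treated libraries and 9.42 ± 0.745 CPM in controls (SD, n = 4 each; log2 0.53, SE 0.13, edgeR adjusted p = 0.0365). Orc3, a subunit of the origin recognition complex, had 20.1, 18.1, 20.6 and 21.1 CPM in treated libraries and 26.2, 29.0, 32.1 and 26.1 CPM in controls (log2 -0.50, SE 0.11, edgeR adjusted p = 0.0265). Bub3 of the spindle checkpoint averaged 12.7 ± 0.398 and 20.8 ± 5.77 CPM in treated and control libraries (log2 -0.72, SE 0.18, edgeR adjusted p = 0.0404), and Cdc27, a subunit of the APC/C, 30.3 ± 2.73 and 40.8 ± 4.07 CPM (log2 -0.43, SE 0.12, edgeR adjusted p = 0.0490). These calls were lost in most fits with 1 library left out. Calls over all genes moved as well, from 1184 with all libraries to 183 without treated library 3 and 2330 without control 4. Wee1 was lost without treated library 1, 2 or 3 or control 2 or 3, and its adjusted p in the 8 fits ran from 0.0158 to 0.0819. Fzr1 was lost without treated library 2, 3 or 4 or control 2 or 3 (adjusted p 0.0295 to 0.110 in the 8 fits), and Orc3 without any single treated library or control 2 or 3 (0.0173 to 0.0836). Bub3 and Cdc27 kept their call only without control 4, with adjusted p from 0.0174 to 0.117 and from 0.0184 to 0.1304 in the 8 fits.

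The groups within that list differed in level and spread. Of 8 inhibitors of the cyclin kinases 5 were tested and none called with all 8 libraries. Cdkn1a, which encodes p21 and is a target of p53, was the most abundant of them per length, with 30.3, 7.74, 27.3 and 20.8 CPM in treated libraries, against 125, 86.5, 45.6 and 5.35 CPM in controls. Control 4 lies below every treated library of Cdkn1a and the other controls above them (log2 -1.61, SE 0.86, edgeR adjusted p = 0.261). Without control 4, Cdkn1a was called lower (log2 -1.99, edgeR adjusted p = 0.0447), and in the other fits with 1 library left out it was not, with adjusted p of up to 0.465. Of 9 inhibitory kinases, CDC25 phosphatases and checkpoint genes 6 were tested and only Wee1 was called. Of 28 genes of origins and forks 23 were tested and only Orc3 was called, with Gins4, the most abundant per length, at 12.7 ± 0.765 CPM in treated libraries and 9.42 ± 2.69 CPM in controls (edgeR adjusted p = 0.177). Gins4 was called higher without control 4 alone (log2 0.64, edgeR adjusted p = 0.0212), with adjusted p of up to 0.339 in the other fits with 1 library left out. The fit without control 4, which also called Cdkn1a, called 2330 of all genes, against 1184 with all libraries. Of 18 genes of the RB, E2F, DREAM and FOXM1 group 15 were tested and none called, with E2f4 at 17.6 ± 1.33 CPM in treated libraries and 18.8 ± 4.78 CPM in controls (edgeR adjusted p = 0.759). Of 21 spindle, kinetochore and cytokinesis genes 13 were tested and only Bub3 was called. Each of the 13 had a negative fitted change, as had 6859 of all 12861 tested genes. Of the 21, with the 8 untested ones included, 20 were highest in control 2, beside 19.3% of all tested genes. Of 20 ubiquitin ligase and kinase partner genes 19 were tested and Fzr1 and Cdc27 called, with Cks2, the most abundant per length, at 14.7 ± 3.61 CPM in treated libraries and 12.1 ± 4.46 CPM in controls (edgeR adjusted p = 0.555).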

How the data were processed

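Raw read counts and FPKM per gene were used as deposited by the authors. Each deposited FPKM equals the count scaled by library total and gene length. The submitters' processing notes name HISAT2, HTSeq 0.13.5, DESeq2 1.32.0 and GRCm38 without roles. The strand setting and annotation release (not given in the sources used here) are unknown, so overlapping genes cannot be told apart.

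Counts were fitted with edgeR 4.0.16 in R 4.3.3 (filterByExpr, minimum count 10 and total 15, TMM, robust quasi-likelihood, group alone), with Benjamini-Hochberg adjustment over 12861 genes, after tests on simulated data. Alternatives were other scalings and filters, DESeq2 1.42.0, limma 3.58.1 (voom, and log2 FPKM with 1 or 0.1 added), a replicate block, removal of the length trend and leaving out each library. Removing length and GC trends, and leaving out controls 2 and 4, were added after the data were seen. Annotation is GENCODE M21.

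The members and lists were chosen with earlier results of these data known. Values per library are given for members called or without overlap and for the 2 of highest mean FPKM in each role. Of the further list, called genes and the most abundant of each group are named. Other genes were chosen after their values were seen.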

Additional observations from a re-analysis of the deposited data

Results flagged for a closer look

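Among 68 sets of 4 libraries (34 genes in each group), 6 held a library far from the rest of its group in CPM. Its gap to the nearest neighbour, as a share of the whole range of the group, passed Dixon's 95% critical value. By chance about 1 in 20 sets pass this limit where values are independent and normally distributed. The 68 sets share the same 8 libraries and include scarce genes, so that rate is only a rough guide here. Control 2 was the high one for Mcm4, Mcm5, Aurkb and Top2a. It had 9.41 CPM of Mcm4 against 3.46 in the next control (gap 0.938 of the range), 7.55 CPM of Mcm5 against 1.47 (gap 0.860), 2.22 CPM of Aurkb against 0.421 (gap 0.851) and 17.0 CPM of Top2a against 3.77 (gap 0.831). Control 3 was low for Cdk2, at 3.21 CPM against 7.03 in the next control (gap 0.948). Treated library 2 was high for Cdc6, at 0.469 CPM against 0.179 in the next treated library (gap 0.834), values that rest on 8 and 3 counts.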

How the results depend on the processing

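The call of Cdk6 held under all alternatives run, including each library left out, and members called higher stayed at 1 except for 2 without the low-count filter and with DESeq2. Members called lower were 2 with DESeq2 and ran from 0 to 1 with a library left out, the single ones being Rrm1 without control 1 and Rrm2 without control 3. Of all genes 1184 were called, 2215 with DESeq2, 322 with unfiltered log2(FPKM + 1), 789 without the length trend, 532 without length and GC trends, and 183 to 2330 with a library left out. Further genes called higher were 2, but 1 with library size alone, 0 without the low-count filter, 0 with unfiltered FPKM, 0 with the replicate block, 1 without length and GC trends, 0 to 4 with a library left out, and 2 others (Mcm10 and Rfc3) without controls 2 and 4. Those called lower were 3, but 5 with the stricter filter, 10 with DESeq2, 1 with log2(FPKM + 1), 0 with unfiltered FPKM, 0 without length and GC trends, 0 without controls 2 and 4, 0 to 7 with a library left out, and 2, in part other genes, with library size alone, without the low-count filter, with non-robust dispersion, voom, log2(FPKM + 0.1) or the replicate block, and without the length trend. Of 14 alternatives other than leaving out 1 library, Wee1 and Orc3 were called in 10 each, Fzr1 in 8, Bub3 in 5 and Cdc27 in 4. Signs turned only in members that were never called. Pcna was at -0.0079 on the log2 scale with library size alone and -0.065 without the length trend, and Ccne1 at -0.032 and -0.068 under the same settings and at -0.099 without length and GC trends. Without controls 2 and 4, Mcm5 was at 0.60, Mcm7 at 0.0053, Cdt1 at 0.32 and E2f1 at 0.22. With a library left out the log2 changes ran from -0.072 to 0.22 for Pcna, -0.28 to 0.50 for Ccne1, -1.63 to 0.15 for Mcm5, -0.26 to 0.10 for Mcm7, -0.32 to 0.12 for Cdt1, -0.64 to 0.15 for E2f1, -0.14 to 0.62 for Cdc45, -0.013 to 0.35 for Aurka and -0.086 to 0.29 for Tyms. The cause was not tested. Same-numbered libraries shared deviations by correlations of -0.012 to 0.18, and 3 of 8 libraries correlated best with their own number, so the numbers were not taken as pairs. With the replicate block 944 genes and 1 member (Cdk6, log2 1.10, adjusted p = 0.0194) were called. Depth limits the mitotic genes, of which 7 of 12 had too few counts to test.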
